A study of Mus musculus with 6 samples.

Results

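Autophagy carries cytoplasmic material to the lysosome inside a double-membraned vesicle, the autophagosome. The 37 genes described here encode its core machinery and the receptors that select its cargo, and they were listed by gene symbol according to what their products do. The rule uses no measured value, though earlier results of these data were known when the list was made. All 37 were found among the 52550 genes of the files, and all 37 passed the filter on low values. The samples were plasmacytoid dendritic cells, the main interferon producers of the immune system, from the spleen of C57BL/6 mice. Each of the 6 libraries came from cells given R837 (imiquimod, an agonist of the endosomal receptor TLR7) for 12 hours. R837 was given alone in 3 libraries and together with taurine, an amino sulfonic acid, in the other 3, so every cell compared here was TLR7-stimulated. Doses and the age of the mice were not given in the sources used here, and no unstimulated library was analysed here. Whether the 3 libraries of a group stem from different mice or cultures is not stated, and p-values therefore measure only the spread between these libraries, which may be technical.

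The process runs in steps. The ULK1 kinase complex starts it, and a lipid kinase complex built on Beclin 1 marks the site where the membrane grows. ATG9A and the ATG2 proteins then supply lipid. A pair of ubiquitin-like conjugation reactions finally attaches proteins of the ATG8 family (LC3 and GABARAP) to the new membrane, where receptors such as p62, the product of Sqstm1, bring ubiquitin-tagged cargo. In plasmacytoid dendritic cells autophagy proteins are known for delivering viral nucleic acid to endosomal TLRs, and related conjugation of LC3 to phagosomes serves the interferon response to DNA-containing immune complexes.

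The ATG8 genes carry the clearest link between sequence and this reaction, and 1 of them, Gabarap, was among the genes that rose. The last 60 coding bases of each are shown from the GENCODE M21 transcripts, with the last in-frame GGN codon in capitals. This is the glycine codon at which the ATG4 proteases stop and to which lipid is joined.
Map1lc3a: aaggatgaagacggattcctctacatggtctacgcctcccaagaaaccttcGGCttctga
Map1lc3b: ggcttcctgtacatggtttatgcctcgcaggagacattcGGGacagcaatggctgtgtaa
Gabarap: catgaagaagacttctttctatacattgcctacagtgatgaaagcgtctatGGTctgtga
Gabarapl1: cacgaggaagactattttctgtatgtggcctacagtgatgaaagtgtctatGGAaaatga
Gabarapl2: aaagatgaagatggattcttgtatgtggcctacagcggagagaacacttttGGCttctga
In Map1lc3b 5 codons stand between that glycine codon and the stop codon, and in the other 4 genes 1 codon does. Over the whole coding sequence Gabarap and its nearest copy Gabarapl1 were 74.9% identical, with a longest shared run of 17 bases. Map1lc3a and Map1lc3b were 73.5% identical, with a longest shared run of 15 bases.

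With taurine, Sqstm1 and Gabarap were the autophagy genes that rose, and the share of genes called was near that of all genes. At an adjusted p under 0.05 (limma with an abundance trend, Benjamini-Hochberg over all genes), 2 of the 37 genes were higher and 0 lower. The other 35 did not pass. That is 5.41% of the genes, against 6.41% called among all 15265 genes tested (3.75% higher and 2.66% lower). The median log2 change of the 37 genes was -0.02, and that of all tested genes was -0.01. At an unadjusted p under 0.05, 4 genes were higher and 7 lower, which is 29.7% of the 37 against 23.7% of all genes. The 3 libraries of one group lay wholly above those of the other for 10 of the 37 genes, 3 higher and 7 lower. This share of 27.0% is close to the 29.6% found over all tested genes. edgeR on the recovered reads also called 2 higher and 0 lower (6.22% of 15265 genes), and DESeq2 called 3 higher and 1 lower. Over all genes DESeq2 called 7.87%, but of the 23406 genes with any read, without the filter on low values. That share is therefore not on the same footing as the others, or as the 37 genes, which all passed the filter. Without the abundance trend 0 of the 37 passed, with 7 at an unadjusted p under 0.05, and without R837 replicate 3 there were 5 calls, 3 higher and 2 lower. Among all genes 573 were higher and 406 lower, against 462 and 586 when totals left out the 50 most abundant genes and 658 and 302 with length and GC trends removed. The 95% interval of the log2 change lay within 1 of zero for 35 of the 37 genes and within 0.5 for 18 of them. Every change given below is a difference in log2(normalized count + 1), positive where the level was higher with taurine. Levels are normalized counts, given as mean ± SD with n = 3 libraries per group. They are levels of RNA. Protein, autophagosomes and degradation by autophagy were not measured in these libraries.

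**Figure D1:**
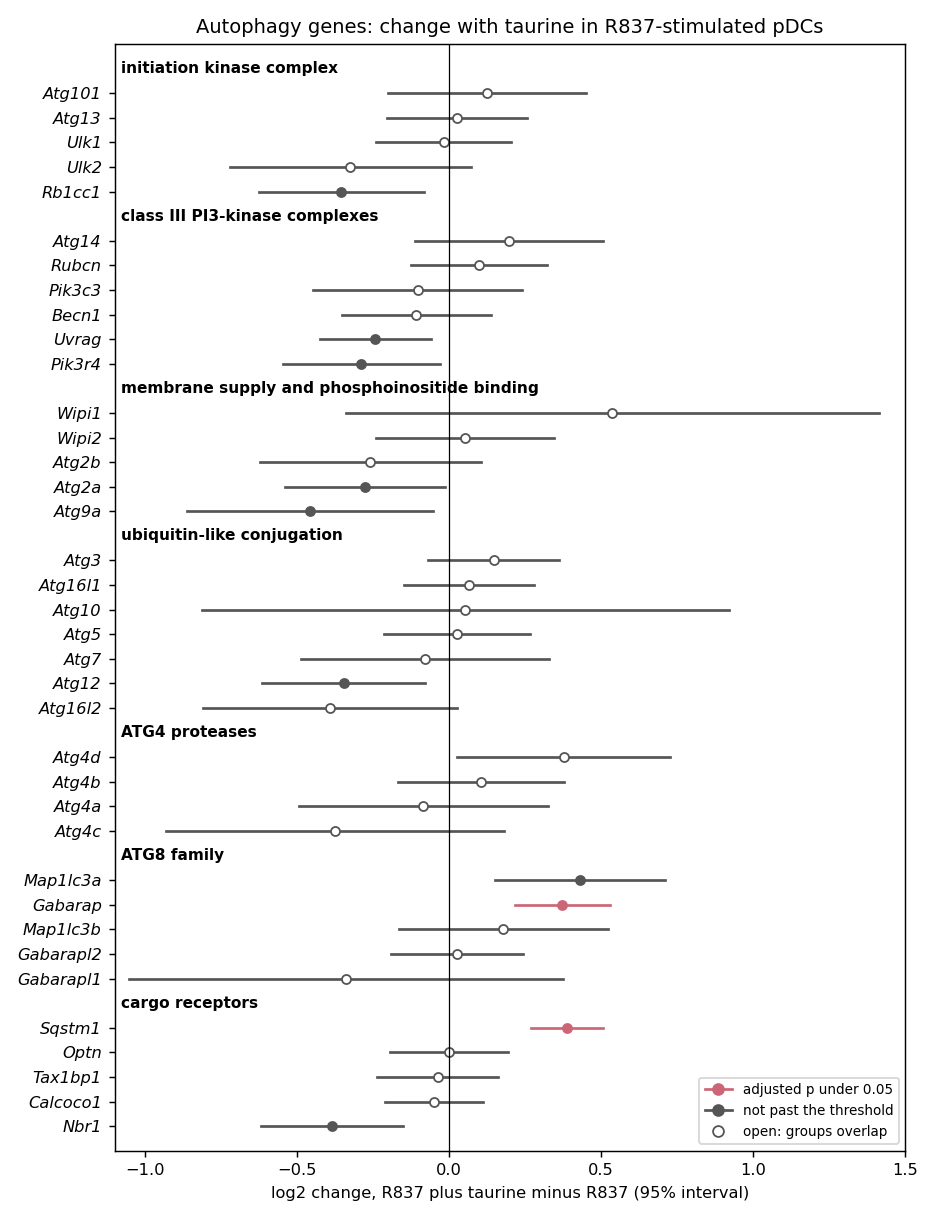
Log2 change with taurine (R837 plus taurine minus R837, horizontal axis) of the 37 autophagy genes, ordered by role, with 95% intervals from limma. Sqstm1 at 0.39 and Gabarap at 0.37, in red, are the 2 genes past the threshold. Filled points mark the 10 genes whose groups do not overlap.

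The libraries held 33585080 to 38392654 reads on genes, and every pair within a group differed by more than sampling noise. Markers of plasmacytoid dendritic cells were all present, with summed normalized counts of 289138 to 322205 under R837 and 304403 to 316305 with taurine. Of these 12 markers 2 rose (Bst2 and Cox6a2) and 4 fell (Tcf4, Runx2, Pacsin1 and Klk1). These calls are 50% of the list, against 6.41% of all genes, with log2 changes from -0.60 (Runx2) to 0.55 (Cox6a2). The largest part of the sum was Ly6d, which was not called, so the sum says little about the other markers. Of 6 T cell markers 2 (Cd3d, Cd3g) were at 0 in every library, Cd3e had 8 reads in taurine replicate 1 and 0 elsewhere, and Trac had 0 to 14 reads. Of 5 NK cell markers 2 (Prf1, Gzma) were at 0 in every library, Ncr1 had 0 to 10 reads, Eomes had 13 in taurine replicate 2 and 0 elsewhere, and Klrb1c had 20 to 58. The lists of B cell and T cell markers had 0 of 6 and 0 of 2 tested members called. The sums were 1561 to 2676 and 1708 to 2461 for B cells, 463 to 509 and 351 to 398 for T cells, and 31.2 to 64.2 and 25.5 to 50.4 for NK cells, R837 first. Pax5 made up most of the B cell sum, with means of 1480 and 1564, so this sum says little about the other B cell markers. Of the 6 tested B cell markers 5 had a change below 0. Fcer2a had means of 135 and 46.5, and its groups did not overlap (log2 change -1.68, limma adjusted p = 0.0654, not called). Most of the T cell sum was Cd5, with means of 424 and 316 (log2 change -0.42, limma adjusted p = 0.0855). Lat had 28 to 82 reads. The lower T cell sum with taurine was thus mainly that of 1 gene, which was not called. The summed conventional dendritic cell markers ran from 16096 to 17302 under R837 and from 14070 to 14408 with taurine, where 1 of 5, Clec9a, fell. Most of this sum was Itgax, with means of 11165 and 9180 (log2 change -0.28, limma adjusted p = 0.0501, not called). Xcr1 was at 47.8 and 46.8, Zbtb46 at 2814 and 3052, and Cd209a at 132 and 89.9. The 6 erythroid markers summed to 85.9 to 126 and to 162 to 239, and the 6 neutrophil markers to 1161 to 1660 and to 1687 to 1931. Of these, Hba-a1 and Ngp rose. The 7 monocyte and macrophage markers summed to 5629 to 5766 and to 5183 to 6238. In bulk samples fewer cells of a type and less RNA per cell cannot be told apart, and the part of these shifts in the results below was not tested.

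Cargo receptors gave the firmest difference. Sqstm1 encodes p62, a receptor that binds ubiquitin on cargo and LC3 on the membrane and is itself degraded by autophagy (ENSMUSG00000015837.15, chromosome 11, 50199366 to 50210827, minus strand, mm10). Its normalized counts were 35742, 35213 and 33994 with R837 alone, and 47050, 45144 and 45169 with R837 plus taurine. The groups stood well apart, with the lowest taurine library above the highest R837 library. The mean went from 34983 ± 897 to 45788 ± 1093, or 30.9% higher (log2 change 0.39 ± 0.05 (SE), adjusted p = 0.00748). The call held in all 6 fits that left out 1 library, with adjusted p from 0.00757 to 0.0436, and was lost without the abundance trend (0.103). The opposite-strand gene Mrnip shares 580 exon bases with Sqstm1, and its reads came to 0.118% of those of Sqstm1. The change was 0.39 with them added, as so few reads could hardly alter it. How reads in the shared bases were counted is not known, so this value does not show what the overlap contributed.

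Nbr1, a receptor with the same domain plan as p62 that also binds ubiquitin and LC3 (ENSMUSG00000017119.19, chromosome 11, 101552149 to 101581951, plus strand), lay on the other side. Its normalized counts were 3057, 3061 and 2461 with R837 and 2152, 2245 and 2142 with taurine. The groups did not overlap, and R837 replicate 3 was the R837 library nearest to the taurine libraries. The mean was 2859.7 ± 345 and then 2180.0 ± 56.9 (log2 change -0.38 ± 0.10 (SE), adjusted p = 0.0622), which missed the threshold. DESeq2 (adjusted p = 0.00877) and totals without the 50 most abundant genes (0.0448) called it lower, as did the fit without R837 replicate 3 (0.0131). Within single libraries there were 11.5 to 13.8 Sqstm1 counts per Nbr1 count under R837 and 20.1 to 21.9 with taurine. This ratio was chosen after its values were seen and was not tested. The 3 remaining receptors moved little. Tax1bp1, a receptor that also restrains inflammatory signalling, had 8080.4 ± 793 and 7851 ± 411 (log2 change -0.04, 95% interval -0.24 to 0.16). Calcoco1, a receptor for the endoplasmic reticulum and Golgi, had 4657 ± 143 and 4500.0 ± 158 (-0.05, -0.21 to 0.11). Optn, the mitophagy receptor optineurin, had 2226 ± 152 and 2223 ± 62.4 (0.00, -0.20 to 0.19). The interval of Optn thus reached about 0.20 in either direction on this scale, given only the spread between these libraries.

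Since Sqstm1 was the gene most clearly apart, the sequence upstream of it is printed from RefSeq (GRCm38.p6, chr11:50210828-50211070, minus strand, 243 bases, ending at the base before the annotated gene). Capitals mark each GGGCGG match on either strand, the letters of a GC box.
Sqstm1 upstream: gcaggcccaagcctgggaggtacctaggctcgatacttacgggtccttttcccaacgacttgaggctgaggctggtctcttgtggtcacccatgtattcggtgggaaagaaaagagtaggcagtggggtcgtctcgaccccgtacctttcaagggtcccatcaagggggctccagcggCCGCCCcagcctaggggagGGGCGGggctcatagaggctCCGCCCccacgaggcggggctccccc
The stretch holds 3 such matches, which begin 65, 46 and 26 bases before the gene. Promoter windows were found for 31 of the 37 genes, in 36 windows. In the 250 bases upstream of the start, GGGCGG was present in 58.3% of these windows and in 32.7% of all 32851 windows of the table. CACGTG, the core letters of the sites bound by the lysosomal regulator TFEB, was in 4 windows (Atg3, Atg5, Atg7 and Rubcn), or 11.1% against 6.02% of all. TGACNNNGC, the core of the antioxidant element, was in 3 (Atg13, Tax1bp1 and Ulk2), or 8.33% against 10.2% of all. The core of the interferon-stimulated response element was in 0 of the 36 against 2.98% of all, and TATAAA was in 2.78% against 12.4%. The windows of the whole table were not limited to genes that passed the filter on low values. All 37 genes passed it, so these shares are not on the same footing. Both strands were searched, and neither CACGTG nor TGACNNNGC was among the letters of the Sqstm1 stretch.

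The ATG8 family, the small ubiquitin-like proteins joined to the autophagosome membrane, held the other call. Gabarap (ENSMUSG00000018567.14, chromosome 11, 69991143 to 69994951, plus strand) had normalized counts of 16645, 16615 and 16388 with R837. With taurine it had 20715, 20270 and 23388. The R837 libraries were nearly equal and all lay below the taurine libraries, of which replicate 3 was highest. The mean rose from 16549 ± 140 to 21458 ± 1686, or 29.7% (log2 change 0.37 ± 0.07 (SE), adjusted p = 0.0196). The Gabarap call was lost in 5 of the 6 fits that left out 1 library. Without R837 replicate 3 it held (adjusted p = 0.0243), but without R837 replicates 1 or 2 the adjusted p was 0.062 and 0.083, and without taurine replicates 1, 2 or 3 it was 0.0549, 0.0522 and 0.0574. The log2 change in these fits ran from 0.31 to 0.41. Without the abundance trend the adjusted p was 0.135.

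Map1lc3a, which encodes the LC3A form (ENSMUSG00000027602.9, chromosome 2, 155276297 to 155278073, plus strand), had 884, 731 and 949.5 with R837 and 1200.4, 1076 and 1164 with taurine. All 3 taurine libraries lay above the R837 libraries, but the spread was wider for its level (means 855 ± 112 and 1147 ± 64.2, log2 change 0.43 ± 0.12 (SE), adjusted p = 0.0726), and it did not pass. DESeq2 (adjusted p = 0.0248) and the fit without R837 replicate 3 (0.0431) called it higher. Map1lc3b, the LC3B form used as the standard marker of autophagosomes, had 2181, 2088 and 1947 with R837 and 2130.2, 1989 and 3034 with taurine. Its groups overlapped, and taurine replicate 3 alone was high (means 2072 ± 118 and 2384 ± 567, log2 change 0.18 ± 0.15 (SE), adjusted p = 0.522). Without that library the change was -0.0078. Gabarapl2 (GATE-16), a form linked to Golgi traffic, had 1046 ± 41.4 and 1066 ± 42.9 (log2 change 0.03, 95% interval -0.19 to 0.24). Gabarapl1 had 1426, 1318 and 1384 with R837 and 1473, 586 and 1487 with taurine. Its lower mean (log2 change -0.34, adjusted p = 0.563) rested on taurine replicate 2, without which the change was 0.11.

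Per 1000 exon bases Gabarap was by far the most abundant of these 5 transcripts. With R837 alone it made up 80.3%, 81.9% and 80.2% of their summed level per length in replicates 1, 2 and 3, and with taurine 81.8%, 85.0% and 83.2%. The ranges of this share overlapped at replicate 2 of R837 and replicate 1 of taurine. Map1lc3a, Gabarapl1 and Gabarapl2 followed, with mean shares under R837 of 6.51%, 6.15% and 4.05%, and Map1lc3b came last with 2.48%. The exon length used is the union of all annotated exons, so a gene with long exons outside the main transcript, such as Map1lc3b with 7517 bases, is set low on this scale.

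**Figure D2:**
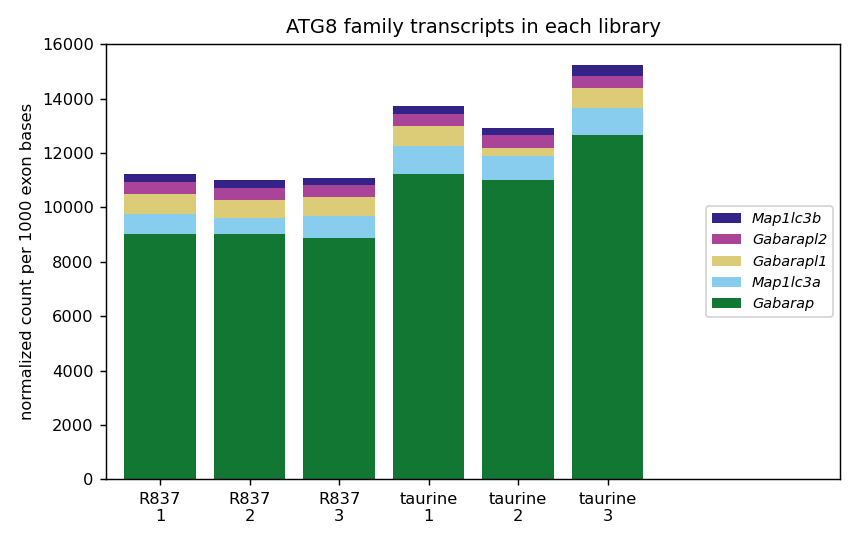
Normalized count per 1000 exon bases (vertical axis) of the 5 ATG8 family genes stacked in each of the 6 libraries. Gabarap, the green part at the base, runs from 8887 to 9027 in the R837 libraries and from 10993 to 12683 in the taurine libraries.

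The ATG4 proteases expose the glycine of ATG8 proteins and later release them from lipid. None of the 4 passed the threshold, and 1, Atg4d, had an unadjusted p under 0.05. Atg4d had 1712 ± 262 and 2227 ± 373 (log2 change 0.38, 95% interval 0.03 to 0.73, adjusted p = 0.182). It shares 1405 exon bases with Kri1 on the opposite strand. With all reads of Kri1 added, not only those in the shared bases, the change was 0.16. Kri1 had 1590 to 1605 with R837 and 1468 to 1500 with taurine. Adding it lowers the change whether or not reads were shared, so the value does not show what the overlap contributed. Atg4b, the most active form, had 1683 ± 126 and 1819 ± 253 (0.11, -0.17 to 0.38). Atg4a had 410.0 ± 68.4 and 387 ± 66.2 (-0.08, -0.49 to 0.32), and the scarce Atg4c had 116 ± 25.1 and 88.5 ± 9.87 (-0.38, -0.93 to 0.18).

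The 7 conjugation genes had a median log2 change of 0.03, and 0 of them were called. With 6.41% of all genes called, a count of 0 in a group of 4 to 7 genes does not set that group apart, here or for the other roles. Atg12, the ubiquitin-like protein joined to ATG5, had normalized counts of 1420, 1440.1 and 1175 with R837 and 958, 1085 and 1125 with taurine. The groups did not overlap, though R837 replicate 3 and taurine replicate 3 were close (means 1345 ± 147 and 1056 ± 87.2, log2 change -0.35 ± 0.12 (SE), adjusted p = 0.116). Without R837 replicate 3 Atg12 was called lower (adjusted p = 0.0468). Atg5, the acceptor of ATG12, had 1033, 983 and 914 with R837 and 1036, 1036 and 912 with taurine. The groups lay on top of each other (means 977 ± 59.7 and 994 ± 71.6, log2 change 0.03 ± 0.11 (SE), adjusted p = 0.920). Atg3, the E2-like enzyme that hands ATG8 proteins to lipid, had 2583 ± 233 and 2855 ± 166 (0.15, 95% interval -0.07 to 0.36). Atg7, the E1-like enzyme that activates both ubiquitin-like proteins, had 369 ± 56.1 and 350.5 ± 59.8 (-0.08, -0.49 to 0.33). Atg16l1, which places the ATG12-ATG5 conjugate on membranes, had 1323 ± 73.2 and 1384 ± 67.0 (0.07, -0.15 to 0.28). Its relative Atg16l2 had 280.4 ± 24.9 and 215 ± 40.2 (-0.39, -0.81 to 0.03), and the E2-like Atg10 had only 43.3 ± 7.85 and 46.5 ± 15.9 (0.05, -0.81 to 0.92). With all reads of Fchsd2 added, a far more abundant gene that shares 25 exon bases with Atg16l2, the change of Atg16l2 was -0.0950. Fchsd2 had 2060% of the reads of Atg16l2 and so sets most of that value, which does not show what the overlap contributed.

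Initiation genes showed no call in 5. Ulk1, the kinase that starts the process, had 989.7, 1056 and 1074 with R837 and 1086, 1007 and 988 with taurine. The groups overlapped fully (means 1040.0 ± 44.6 and 1027 ± 52, log2 change -0.02 ± 0.10 (SE), 95% interval -0.24 to 0.20, adjusted p = 0.939). Rb1cc1 encodes FIP200, the scaffold of the kinase complex, and had 1116, 1165 and 1148 with R837 and 955, 979 and 763 with taurine. All taurine libraries lay below the R837 libraries, with taurine replicate 3 lowest (means 1143 ± 24.7 and 899 ± 118, log2 change -0.35 ± 0.12 (SE), adjusted p = 0.114). Ulk2, the second kinase, had 541 ± 91.2 and 432 ± 78.0 (-0.32, -0.72 to 0.07). The partner Atg13 had 1269 ± 84.3 and 1292 ± 92.8 (0.02, -0.21 to 0.26), and Atg101, which stabilizes Atg13, had 422 ± 17.7 and 463 ± 67.6 (0.12, -0.20 to 0.45).

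The lipid kinase complexes had 0 of 6 called and a median log2 change of -0.11. Becn1, the scaffold Beclin 1, had 2958, 3924 and 3656 with R837 and 3214, 3232 and 3259 with taurine. The taurine libraries were almost equal and fell inside the range of the R837 libraries (means 3513 ± 499 and 3235 ± 22.8, log2 change -0.11 ± 0.11 (SE), adjusted p = 0.591). Exons of Becn1 share 3104 bases with Cntd1 on the other strand. The change was -0.0808 with all reads of Cntd1 added, which does not show what the overlap contributed. Uvrag, the subunit of the complex on endosomes, had 3126, 3488 and 3128 with R837 and 2726, 2683 and 2809.7 with taurine. The groups did not overlap (means 3247 ± 208 and 2739.7 ± 64.3, log2 change -0.24 ± 0.08 (SE), adjusted p = 0.107). Pik3r4, the regulatory kinase VPS15, had 1344, 1139.7 and 1271 with R837 and 1123, 1028 and 926 with taurine. The nearest libraries of the groups were 1139.7 and 1123 (means 1252 ± 104 and 1025 ± 98.6, log2 change -0.29 ± 0.11 (SE), adjusted p = 0.166). The catalytic subunit gene Pik3c3 (VPS34) had 1289.6 ± 248 and 1187 ± 96.8 (-0.10, -0.45 to 0.24). Atg14, which directs the complex to autophagosomes, had 407 ± 48.7 and 465 ± 20 (0.20, -0.11 to 0.51). Rubcn (Rubicon), which inhibits autophagy and is needed for LC3-associated phagocytosis, had 1449.6 ± 93.1 and 1552 ± 114 (0.10, -0.13 to 0.32).

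Membrane supply genes had 0 of 5 called and a median of -0.26. Atg9a, the lipid scramblase on the vesicles that seed the membrane, had 828, 744 and 867 with R837 and 693.6, 672 and 443.7 with taurine. The groups did not overlap, and taurine replicate 3 was far below the rest (means 813 ± 63 and 603 ± 138, log2 change -0.46 ± 0.18 (SE), adjusted p = 0.163). Its exons share 1832 bases with Gm29253, a processed transcript on the same strand, which had 0, 0 and 5.21 with R837 and 45.4, 54.3 and 242 with taurine. Gm29253 was highest in the library where Atg9a was lowest, so the difference in Atg9a is uncertain. With all reads of Gm29253 and of Ankzf1 added the change was -0.13. Ankzf1 shares 46 exon bases but had 90.4% of the reads of Atg9a, so it weighs heavily in that value. Atg2a, a lipid transfer protein, had 1399, 1197 and 1562 with R837 and 1099, 1143 and 1173 with taurine. The taurine libraries lay just below the lowest R837 library (means 1386 ± 182 and 1139 ± 37, log2 change -0.28 ± 0.12 (SE), adjusted p = 0.191). Its paralogue Atg2b had 842 ± 192 and 692 ± 5.56 (-0.26, -0.62 to 0.10). The phosphoinositide-binding Wipi2 had 1171 ± 198 and 1203 ± 34.8 (0.05, -0.24 to 0.35). Wipi1 was the scarcest of the 37 genes per length, at 40.7 ± 15.4 and 58.2 ± 15.0 (0.54, -0.34 to 1.41), too few counts to place its change.

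**Figure D3:**
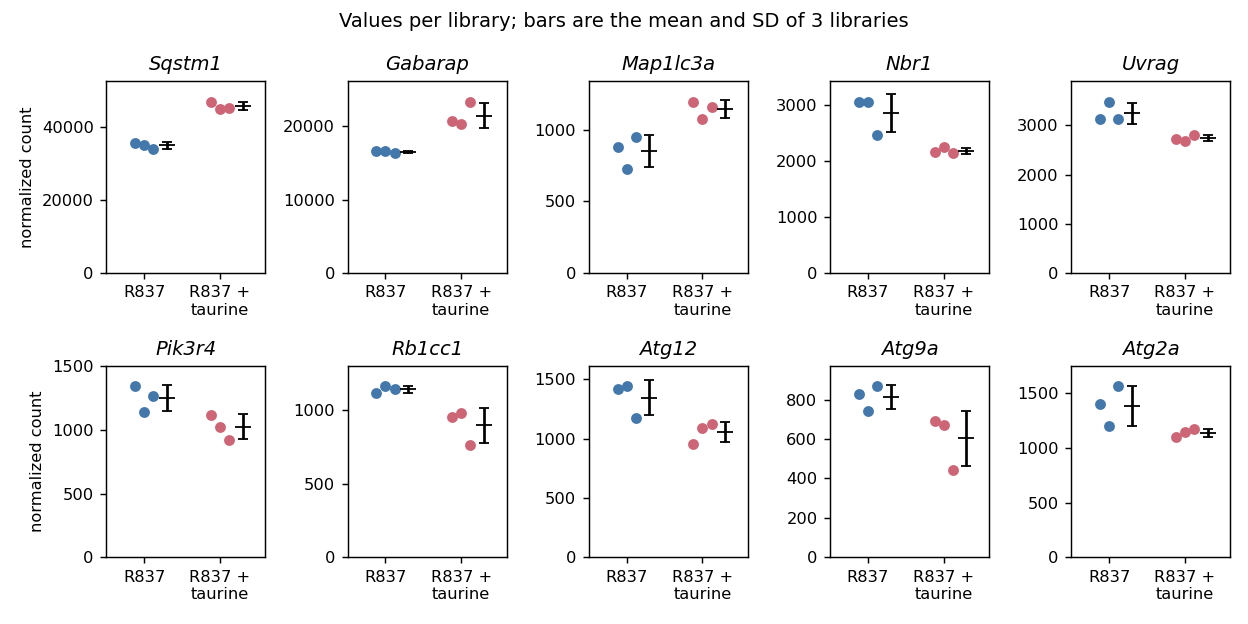
Normalized counts (vertical axes, from 0) of the 10 autophagy genes whose groups did not overlap, 1 point per library, with the mean and SD of 3 libraries beside them. Sqstm1, Gabarap and Map1lc3a are higher with taurine and the other 7 lower, and only Sqstm1 and Gabarap pass the threshold.

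Compared per length, the levels of the 37 genes were very uneven. Under R837 Sqstm1 stood at 10424 and Gabarap at 8975 normalized counts per 1000 exon bases. The third gene, Atg3, stood at 819, and the median of the 37 was 203. Calcoco1 (813) and Tax1bp1 (809) followed Atg3, at mean levels closer together than the spread of Tax1bp1 between libraries. Atg4c, Atg16l2, Atg10 and Wipi1 closed the order, at 34.7, 33.1, 25.2 and 9.22.

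Exon length moved with the change, and the trend was one of whole libraries. Spearman's rho between exon length and a library's deviation from the mean of all libraries was 0.11, 0.15 and 0.04 in R837 replicates 1, 2 and 3. In taurine replicates 1, 2 and 3 it was -0.10, -0.13 and -0.20. The length trend thus differed between the groups, and whether it stems from taurine or from library preparation was not tested. Across the 37 genes Spearman's rho between exon length and log2 change was -0.35, and across all 15238 tested genes with an annotated length it was -0.19. Genes are not independent replicates, and each value rests on the same 6 libraries. Taurine replicate 3, the extreme taurine library for Gabarap, Map1lc3b, Rb1cc1 and Atg9a, had the strongest trend on length and on GC content. Its rho with GC content was 0.23, against -0.16 (R837 replicate 2) to 0.06 (taurine replicate 2) in the others. The part of these trends in those genes was not tested. Of the 12 autophagy genes with under 4000 exon bases 8 had a change above 0, with a median of 0.04. Of the 25 longer ones 9 did, with a median of -0.08. Over all tested genes the medians were 0.07 and -0.08. Sqstm1 (3356 bases), Gabarap (1844) and Map1lc3a (1181) were on the short side, while Rb1cc1 (14690), Pik3r4 (9660), Uvrag (9035), Atg12 (7711) and Nbr1 (6871) were long. With each library's trend on length and GC content removed, Sqstm1 and Gabarap kept their calls at 0.34 and 0.34, Nbr1 was at -0.26, Rb1cc1 at -0.22 and Atg12 at -0.20. The median of the 37 genes was then 0.02.

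**Figure D4:**
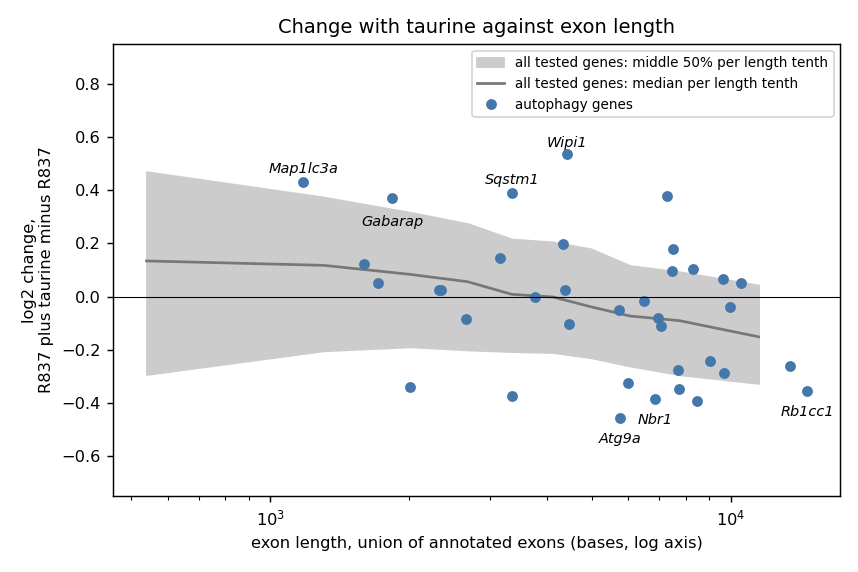
Log2 change with taurine (vertical axis) against exon length (horizontal log axis) for the 37 autophagy genes as points, over the median and middle 50% of all tested genes in bins of equal gene number by length. The grey median falls from above 0 for short genes to below 0 for long ones, and Sqstm1 at 3356 bases lies above the band.

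Beyond the 37 genes, 87 others of the pathway were listed by role. Of these 86 were matched by symbol, 84 passed the filter, 1 rose and 3 fell, with a median log2 change of -0.05. This is 4.76%, against 6.41% of all genes. Zkscan3, a zinc finger repressor of autophagy and lysosome genes, fell. Its normalized counts were 3514, 4263 and 3325 with R837 and 1469, 2471 and 2358 with taurine. The groups lay apart, with taurine replicate 1 lowest (log2 change -0.85 ± 0.19 (SE), adjusted p = 0.0382). Its call held without R837 replicate 3 (0.040) and was lost without R837 replicates 1 or 2 (0.0938 and 0.141) and without taurine replicates 1, 2 or 3 (0.053, 0.0536 and 0.0792). With the length and GC trends removed it was at -0.70 (adjusted p = 0.0647). Its activating counterparts in the same list did not pass. Tfeb had 3902, 2421 and 3813 and then 4000, 2595 and 3886 (log2 change 0.05, 95% interval -0.43 to 0.54), and Tfe3 had 3819 ± 73.2 and 3609 ± 183 (-0.08, -0.25 to 0.09). Of the 26 tested genes of AMPK, TORC1 and TFEB control, Zkscan3 was the only one called.

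The other 3 calls were spread over 3 lists. Snx18, a sorting nexin that helps membrane reach the autophagosome, had 11636, 11454 and 10041 with R837 and 8538, 8548 and 8062 with taurine. It fell by 0.40 ± 0.08 (SE) on the log2 scale (adjusted p = 0.0223). Cbl, a ubiquitin ligase best known for ending receptor signalling, had 13263, 12324 and 10310 with R837 and 8918, 9028 and 8718 with taurine. It fell by 0.42 ± 0.09 (SE) on the log2 scale (adjusted p = 0.0352), and by 0.24 (adjusted p = 0.0718) with the length and GC trends removed. Cyba, the p22phox subunit of the NADPH oxidase that LC3-associated phagocytosis uses, was 17364, 15714 and 17623 with R837 and 20372, 21599 and 22594 with taurine. It rose by 0.35 ± 0.07 (SE, adjusted p = 0.0249), while Cybb, Ncf1, Ncf4 and Rac2 of the same list did not pass. None of these 4 genes overlapped between groups. Without the abundance trend none of the 4 passed (adjusted p from 0.133 to 0.155). Snx18, Cbl and Cyba each kept the call in 1 of the 6 fits with 1 library left out, that without R837 replicate 3 (adjusted p = 0.00783, 0.00597 and 0.0197). In the other 5 fits the adjusted p ran from 0.0665 to 0.101 for Snx18, from 0.0905 to 0.133 for Cbl and from 0.0546 to 0.104 for Cyba. None of the 14 tested genes of autophagosome fusion passed, with 0 higher and 2 lower at an unadjusted p under 0.05 (limma), and edgeR gave no call there. DESeq2 called 1 of them, Epg5, a tether for fusion with the lysosome. The 2 genes lower at an unadjusted p under 0.05 are 14.3% of the 14, against 23.7% of all tested genes in either direction. With 6.41% of all genes called by limma, 0 calls in a list of 14 do not set it apart.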

How the data were processed

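RNA-seq of 6 libraries was compared, 3 with R837 and 3 with R837 plus taurine. The deposited values are normalized gene counts per the file headers (signal), and the values show them to be whole reads divided by a size factor. Per the submitters' processing notes HISAT2, StringTie, mm8 and mm10 were named, without roles. The counting tool, strand setting and normalizing tool were not given in the sources used here. Dividing out each library's step gave whole reads for 100% of values within 0.001 read. Coordinates are mm10 (GRCm38): 95.2% of genes shared with the GENCODE M21 annotation have its coordinates.

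A gene was tested if 3 or more libraries reached a normalized count of 10 (15265 genes). The test ran on log2(normalized count + 1) with limma 3.58.1 and an abundance trend in R 4.3.3. It was two-sided and called genes at a Benjamini-Hochberg adjusted p under 0.05. Alternatives used edgeR 4.0.16 and DESeq2 1.42.0 on the recovered reads, other filters, scalings and pseudocounts, a replicate block, removal of length and GC trends (mgcv 1.9.3), added reads of overlapping genes, and 1 library left out. The scripts were tested on simulated data. Among the 37 genes, per-library values are given by rule for called genes, for genes whose groups do not overlap with an unadjusted p under 0.05, and for Ulk1, Becn1, Atg5, Map1lc3b and Sqstm1. Called genes of the other pathway lists are also given so. The library values of Gabarapl1 and the values of Tfeb and Tfe3 were added after they were seen. The members and lists were chosen with earlier results of these data known. The labels state no pairing by replicate number, and the main test used none.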

Additional observations from a re-analysis of the deposited data

How the results depend on the processing

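Among all genes the 979 calls became 547 with no filter on low values and 4 without the abundance trend. They became 1842 with DESeq2, also without that filter, 615 with the replicate block, and 134 to 1477 with 1 library left out. The 2 calls among the 37 autophagy genes became 0 without the trend, 4 with DESeq2 and 1 to 5 in the leave-one-out fits (5 of them without R837 replicate 3). The 4 calls among the other pathway genes became 1 with no filter, 0 without the trend (14 at an unadjusted p under 0.05), 8 with DESeq2 and 0 to 8 with 1 library left out (8 without R837 replicate 3). With the replicate block Sqstm1 (adjusted p = 0.0269) and Gabarap (0.0428) passed. Same-numbered libraries deviated with correlations of -0.00264, -0.00681 and -0.0434, so no pairing by number was visible. The labels do not state whether libraries were paired, and these correlations cannot settle it. Some changes that were not called turned sign, among them Gabarapl1 (-0.34) and Map1lc3b (0.18), each with 1 taurine library left out. Totals without the 50 most abundant genes gave -0.0090 for Atg13, -0.0086 for Atg5 and -0.0077 for Gabarapl2. Removal of length and GC trends gave 0.0320 for Becn1, 0.0192 for Optn and 0.0699 for Tax1bp1, quantile normalization 0.0186 for Optn, and edgeR 0.0056 for Optn. With 1 library left out the log2 change ran from -0.0591 to 0.0091 for Ulk1, -0.0309 to 0.0752 for Atg13, -0.0533 to 0.18 for Wipi2, -0.0216 to 0.0864 for Atg5, -0.20 to 0.0473 for Atg7, -0.13 to 0.37 for Atg10, -0.19 to 0.0564 for Atg4a, -0.0078 to 0.30 for Map1lc3b, -0.56 to 0.11 for Gabarapl1, -0.0482 to 0.0498 for Optn and -0.12 to 0.0048 for Tax1bp1. None of these was called in the main analysis, and the cause was not tested. With 3 libraries a group small changes are not resolved, and the 95% interval lay within 0.5 of zero for 18 of the 37 genes.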
